A study of Drosophila melanogaster with 33 samples.

Results

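The genes described here are the cuticle protein and Osiris genes of Drosophila melanogaster, followed in the midgut through the start of metamorphosis. They were chosen by gene symbol in the annotation of the array platform: symbols beginning with Cpr, Lcp, Edg, Twdl or Osi and ending in a member's own name, with at least 1 value at 6 or more stages. All 108 matching genes met that requirement, out of 9904 named genes measured. They comprise 58 Cpr, 7 Lcp, 3 Edg, 17 Twdl and 23 Osi genes. By the RefSeq annotation 45 lie on chromosome arm 3R, 36 on 3L, 17 on 2R, 6 on 2L and 4 on X.

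Midguts of the Canton S strain were taken at 11 stages: 18 h and 4 h before puparium formation (BPF), at puparium formation (0 h), hourly from 2 to 6 h after it (APF), and at 8, 10 and 12 h. Every one of these was measured on 3 arrays, lettered a, b and c, which the labels describe as independent samples. On every array amplified RNA of 1 stage, in Cy5, was hybridised against a common midgut reference in Cy3, which pooled 10 of the stages and left out 10 h. No mutant, transgene or treatment was part of the design. A value is the log2 ratio of stage over reference, so a difference of 1 between stages is a doubling of the ratio. Because a ratio has no absolute level, genes are compared here by how they change and not by how abundant they are. A gene with little RNA at every stage also gives ratios near 0, and signal intensities were not used here. In whole midguts, fewer cells of a type and less RNA per cell cannot be told apart.

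Insect cuticle is a layered apical matrix of chitin fibres and proteins, secreted by epidermis, trachea, foregut and hindgut. The Cpr proteins carry the Rebers and Riddiford chitin-binding domain, to which most Lcp (larval cuticle protein) and Edg (ecdysone-dependent gene) products also belong, while Twdl (Tweedle) proteins form a separate family of cuticle proteins. The Osi (Osiris) genes encode an insect-specific family of membrane-associated proteins, most of them in 1 conserved cluster at the Triplo-lethal locus, and are known for expression in cuticle-forming epithelia. The midgut itself is endodermal and is lined by a peritrophic matrix in place of cuticle. The nuclear receptor ftz-f1 is expressed in prepupae between pulses of ecdysone, and Edg84A is a known target of that receptor.

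Arrays held 7006 to 13966 probe values. Those lettered a measured on average 56.9 of the 108 genes, against 86.6 for b and 89.4 for c, and at 6 h the arrays a and c held only 30 and 29 of them. Missing values limited what could be tested, since 4 of the 108 genes had a value on all 33 arrays and the median gene had 24. Over all features, arrays of 1 stage correlated at 0.59 to 0.86, and 100 of the 528 array pairs, all between stages, correlated below -0.3, with a lowest r of -0.53. By the labels the dyes ran the same way on every array, and the direction of the ratio, which was inferred from the reference mixture, was kept.

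Among the 8 h arrays, array b held fewer high values of these genes. At 8 h, 11 of 63 measured genes reached a log2 ratio of 1 on array a and 17 of 94 on array c, but 5 of 64 on array b. The arrays measured different sets of genes, and the share of all features reaching 1 was not computed. Of the 38 genes measured on all 3 arrays, 3 reached 1 on every array and 3 reached it on a and c but not on b. Over the 108 genes, 8 h array b correlated with a at 0.47 (41 genes) and with c at 0.44 (61 genes), against 0.67 (56 genes) between a and c. Over all features the same 3 correlations were 0.83, 0.80 and 0.86. Low correlations over the 108 genes were not confined to this array. At 10 h they were 0.35 (a and b), 0.31 (a and c) and 0.20 (b and c). These correlations are across genes, which are not independent replicates. Counts of calls in the contrasts from 6 h to 8 h and from 8 h to 12 h are given with and without 8 h array b. Among the genes called there, Cpr51A, Osi2 and Cpr78Ca had 8 h values on b and c alone and could not be tested without b. Without it 11 genes passed the F test described next and the 10 steps between neighbouring stages gave 20 calls. Shares over all features were not computed for fits without an array, so such counts have no background. The reason for the low values on array b was not tested.

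The difference between the highest and lowest stage mean was under 1 for 86 genes, 1 to 2 for 10, and 2 or more for 12, with a median of 0.70. Among features with 2 values at every stage the median was 0.91 for these genes and 0.96 for all. The 12 genes past 2 were Osi14, Cpr51A, Osi6, Osi9, Osi7, Edg84A, Cpr78Ca, Cpr49Ac, Osi2, Cpr64Ad, Osi15 and TwdlT, and 9 of them had their highest mean at 8 h. For Edg84A that mean rested on 1 array. The share highest at 8 h among all features of such a range was not computed. In the moderated F test over the 11 stages, which needed 2 values at every stage, 27 of the 108 genes could be tested. Of these 13 passed an adjusted p of 0.05 (limma, Benjamini-Hochberg over all features), or 48.1%, against 56.4% of all 6925 features tested. They were Osi6, Osi14, Cpr49Ac, Cpr78Ca, Cpr51A, Osi20, Osi15, Osi7, Cpr64Ad, Cpr92A, TwdlT, Cpr78E and Cpr72Ec. The highest mean lay at 8 h for 7 of the 13, at 6 h for 3, at 18 h BPF for 2 and at 4 h BPF for 1, while 9.9% of all 3909 features past the test were highest at 8 h. Without 6 h array b or without 8 h array c, 7 genes passed.

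**Figure D1:**
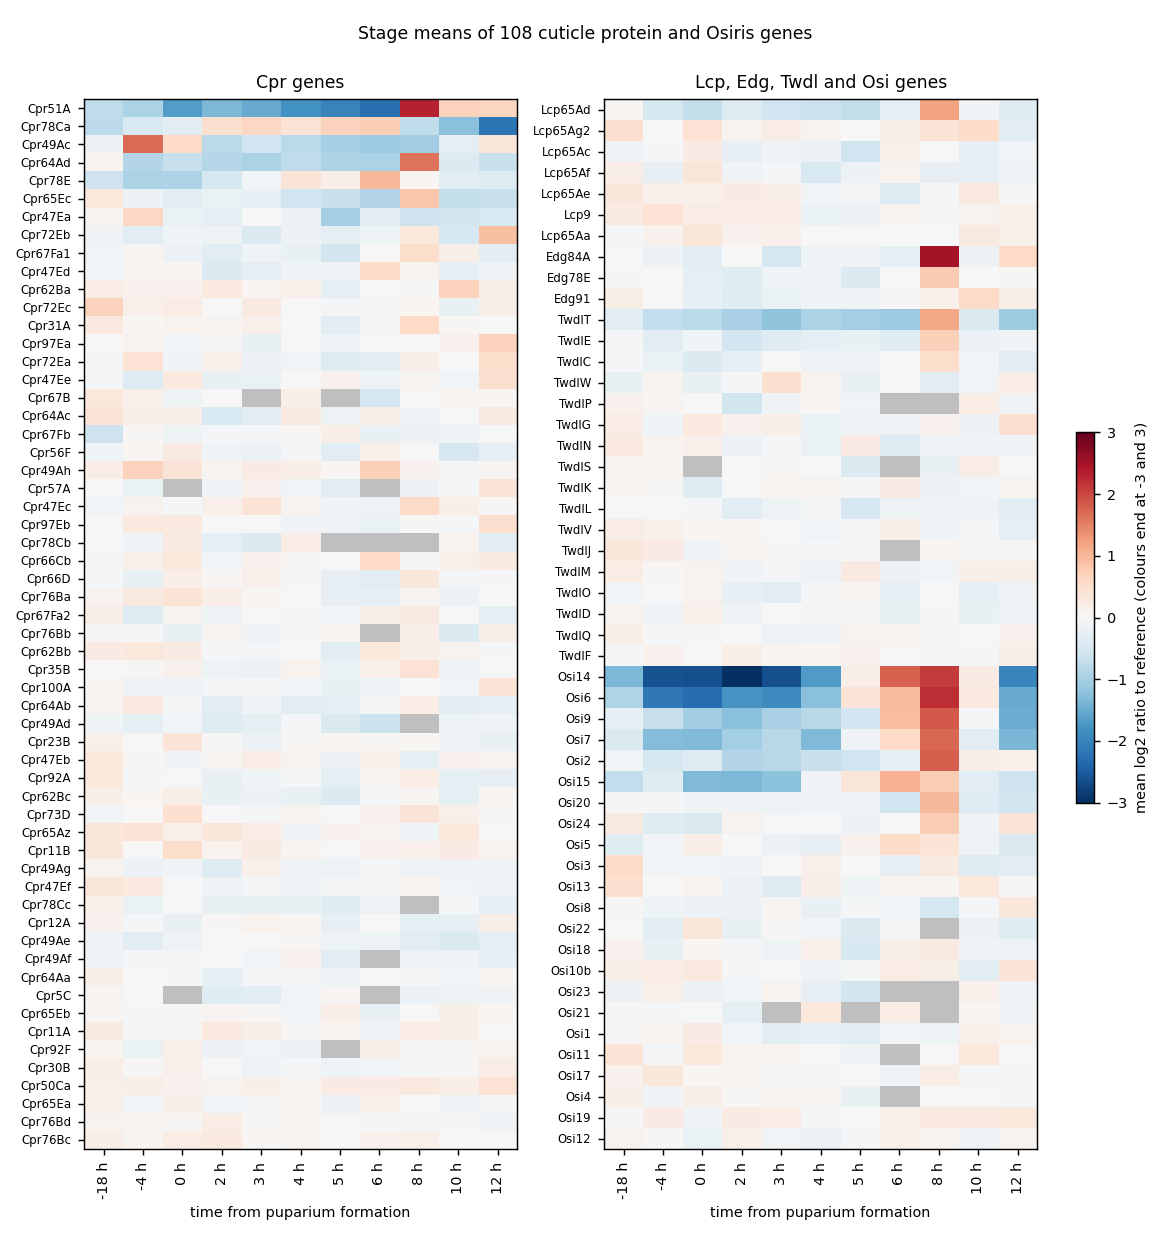
Mean log2 ratio to the pooled reference of each of the 108 genes (rows, ordered within family by the difference between highest and lowest stage mean) at the 11 stages (columns, hours from puparium formation, negative before it). Colours end at -3 and 3, and grey marks a stage with no value. A few rows at the top of the family blocks carry most of the colour, and 86 rows vary by less than 1.

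The Osiris genes supplied the widest courses. Osi14 ranged over 5.31 on the log2 scale (39.8-fold) and Osi6 over 4.49 (22.4-fold), and both were low around puparium formation and highest at 8 h. On the 0 h arrays a, b and c Osi14 read -3.05, -3.22 and -1.61, at 6 h 1.66 and 1.87 on a and b, at 8 h 2.30, 1.53 and 2.43, and at 12 h -2.36, -1.94 and -1.60. All 8 h arrays lay above all 0 h and 12 h arrays. Its adjusted p in the F test was 5.12e-09.

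Osi6 read -2.30 and -2.25 on the 0 h arrays a and b, 0.51, 1.22 and 1.10 at 6 h on a, b and c, 2.28, 1.86 and 2.48 at 8 h, and -2.31, -1.36 and -0.88 at 12 h. The 4 stages did not overlap apart from 0 h and 12 h. Array b at 8 h was only slightly below the others for this gene. Its stage means were -2.28 at 0 h, -1.78 at 2 h, -1.91 at 3 h, -1.26 at 4 h and 0.40 at 5 h.

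Osi9 had 1 value at 0 h, -1.05 on array b, so it could not be tested from 0 h. At 6 h it read 1.04, 0.63 and 1.10, at 8 h 2.11, 1.21 and 2.20, and at 12 h -1.50, -0.90 and -2.08. Every 8 h array was above every 6 h array, though the 6 h to 8 h difference of 0.91 ± 0.30 (SE) did not pass (adjusted p = 0.107, limma across all features).

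Osi7 was less even. Its 0 h arrays read -0.19, -2.75 and -1.05, its 6 h arrays -0.40, 1.12 and 1.07, and its 8 h arrays 1.55, 0.31 and 3.35. The 0 h and 6 h arrays overlapped, and 8 h array b lay below both 6 h arrays b and c. At 12 h it read -0.97, -1.80 and -1.33, below all arrays of 8 h.

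Osi15 peaked at 6 h instead, with 1.03, 0.90 and 1.22, after -1.16 and -1.48 on the 0 h arrays a and b. At 8 h its arrays spread from -0.05 on b to 1.72 on a, overlapping those of 6 h. Its 8 h mean was 0.76 ± 0.90 (SD, n = 3).

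Osi2 and Osi20 followed a shorter course, near or below the reference through 6 h and high at 8 h. Osi2 read -0.15 and -0.39 on the 6 h arrays b and c, 1.85 and 1.80 on the same letters at 8 h, and -0.19 and 0.50 at 12 h. Osi20 read -0.36 and -0.80 on the 6 h arrays a and b, 0.90 and 1.03 on the 8 h arrays a and c, and -0.83 and -0.29 on the 12 h arrays a and b. For both genes the 8 h values lay above every other array of the series.

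**Figure D2:**
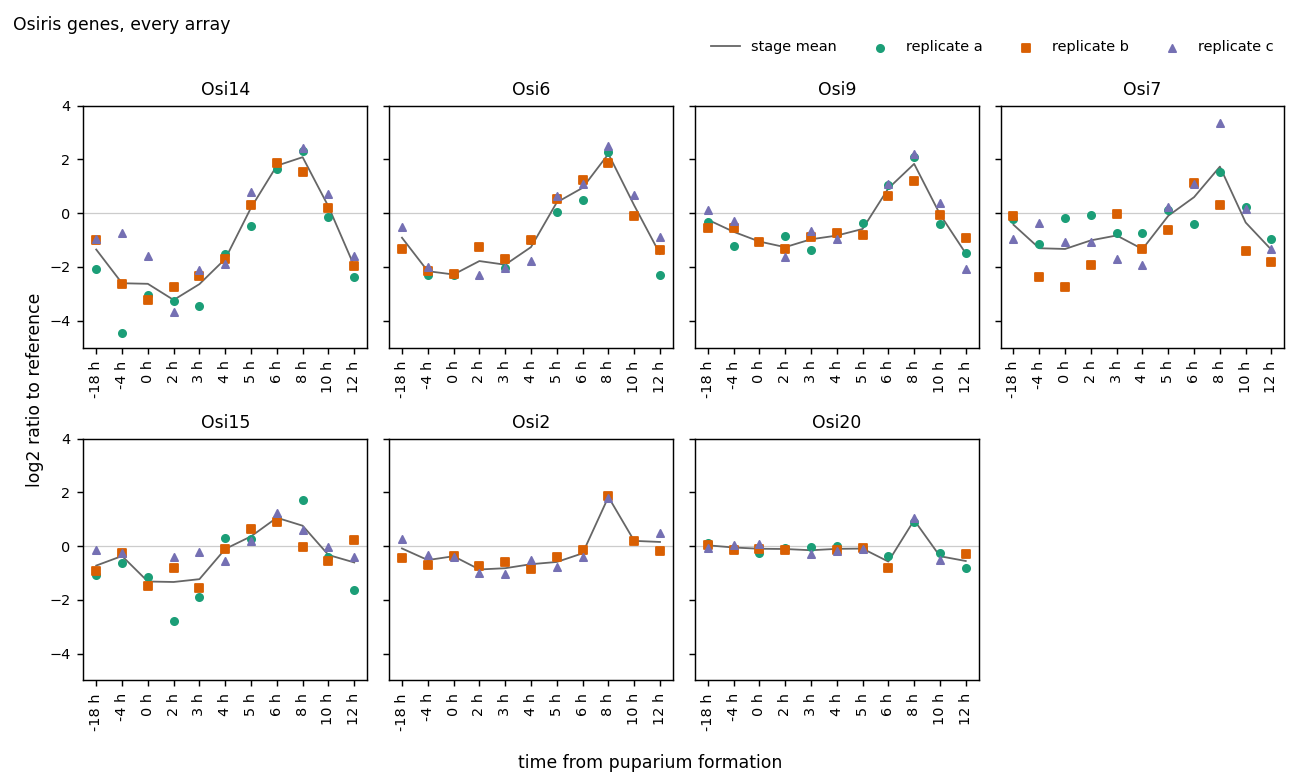
Log2 ratio to the reference on every array (points, by replicate letter) and stage mean (line) for 7 Osiris genes over the 11 stages, in hours from puparium formation. Osi14, Osi6, Osi9, Osi7 and Osi15 have means above 0 by 6 h, while Osi2 and Osi20 are highest at 8 h, at 1.83 and 0.96.

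These 7 genes share a neighbourhood. The RefSeq order of genes on 3R places 22 Osi genes between Osi1 and Osi20, of which 20 were measured here, and 7 passed the F test or at least 1 of the 4 contrasts described next. That is 7 of the 17 that could be tested in any of these (41.2%), against 36.8% of all features, and 7 of the 20 could be tested in the F test. The other 13 cluster genes had ranges of 0.36 to 1.16, so genes with wide courses lay among genes with narrow ones. Of the narrow ones Osi13 and Osi24 had 1 value each at 8 h. Osi6, Osi7 and Osi9 lie close together with Osi8 between them, a gene that ranged over 0.88 and had 1 value at 8 h, -0.54. Osi14 and Osi15 are direct neighbours, and Osi13 beside them ranged over 0.89. Outside the cluster Osi21, Osi22 and Osi23 ranged over 0.60, 0.81 and 0.70.

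**Figure D3:**
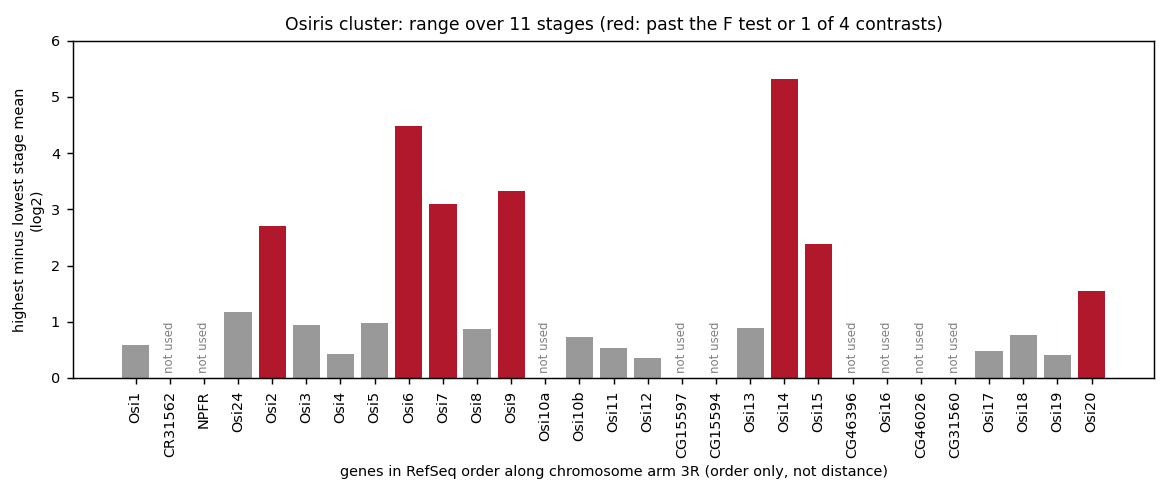
Difference between highest and lowest stage mean (log2, bars) for the genes of the Osiris cluster in RefSeq order; spacing shows order and not distance. The 7 red bars passed the F test or 1 of 4 contrasts and reach from 1.54 to 5.31, and the 13 grey bars stay between 0.36 and 1.16; genes marked as not used were not members or had no value.

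The cuticle protein genes with wide courses fell into several patterns. Cpr51A read -2.13 and -2.38 on the 6 h arrays b and c, 1.61 and 3.00 at 8 h, and -0.02 and 1.29 at 12 h; it had no value on array a at those stages. The 8 h arrays lay above every earlier array. From 6 h to 8 h its ratio rose by 4.56 ± 0.58, or 23.6-fold.

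Cpr64Ad read -1.59, -0.26 and -1.0 at 6 h, 2.32, -0.25 and 2.84 at 8 h, and -1.36, -0.02 and -0.65 at 12 h on arrays a, b and c. TwdlT read -0.55, -0.87 and -1.82 at 6 h, 1.39, -0.72 and 2.79 at 8 h, and -0.79, -1.06 and -1.32 at 12 h. In both genes arrays a and c at 8 h stood far above all arrays of the other stages, while array b was at the level of 6 h.

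TwdlE, another Tweedle gene, read 0.88, -0.08 and 1.33 at 8 h and 0.07, -0.14 and -0.27 at 12 h, with array b again low. Its 2 probes had 8 h means of 0.99 and 0.42. Lcp65Ad, a larval cuticle protein gene, read 1.39 and 1.0 on the 8 h arrays a and c, -0.29 on the only 6 h array that measured it (b), and -0.33 and -0.39 on the 12 h arrays b and c. It had no value on 8 h array b.

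Among the ecdysone-dependent genes Edg84A had a single 8 h value, 2.51 on array c, with -0.28 at 6 h on array b. Its 12 h arrays read 1.67, 0.16 and -0.03, and its other arrays lay between -0.65 and 0.13. Neither 8 h contrast could be tested for it. Edg78E, a pupal cuticle protein gene, read 1.27, 0.34 and 0.71 at 8 h after -0.22 and 0.22 at 6 h (b and c), a difference of 0.77 ± 0.27 that did not pass (adjusted p = 0.148, limma). Edg91 ranged over 0.96 and did not pass the F test (adjusted p = 0.214).

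Other Cpr genes peaked away from 8 h. Cpr49Ac was highest at 4 h BPF, with 1.71, 1.80 and 1.59, against 0.05, -0.58 and -0.03 at 18 h BPF, and these arrays did not overlap. It read -0.58 and -1.60 on the 6 h arrays a and c, and 0.59 and 0.15 on the 12 h arrays a and b. Cpr78Ca held means of 0.40 to 0.74 from 2 h to 6 h, read 0.64 and 0.84 on the 6 h arrays b and c, then -1.12 and -0.43 at 8 h and -1.67 and -2.68 at 12 h.

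Cpr78E was highest at 6 h, but its arrays there read 2.15, -0.05 and 0.91, so most of that mean came from array a. At 0 h it read -1.43, -0.91 and -0.46, below all 3 arrays of 6 h. Cpr72Ec was highest at 18 h BPF, at 0.69 ± 0.28 (SD, n = 3), with 0.48, 1.01 and 0.58 on arrays a, b and c. Its mean was lowest at 10 h, where the same letters read 0.09, -0.12 and -0.67. Cpr92A was also highest at 18 h BPF, at 0.31.

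**Figure D4:**
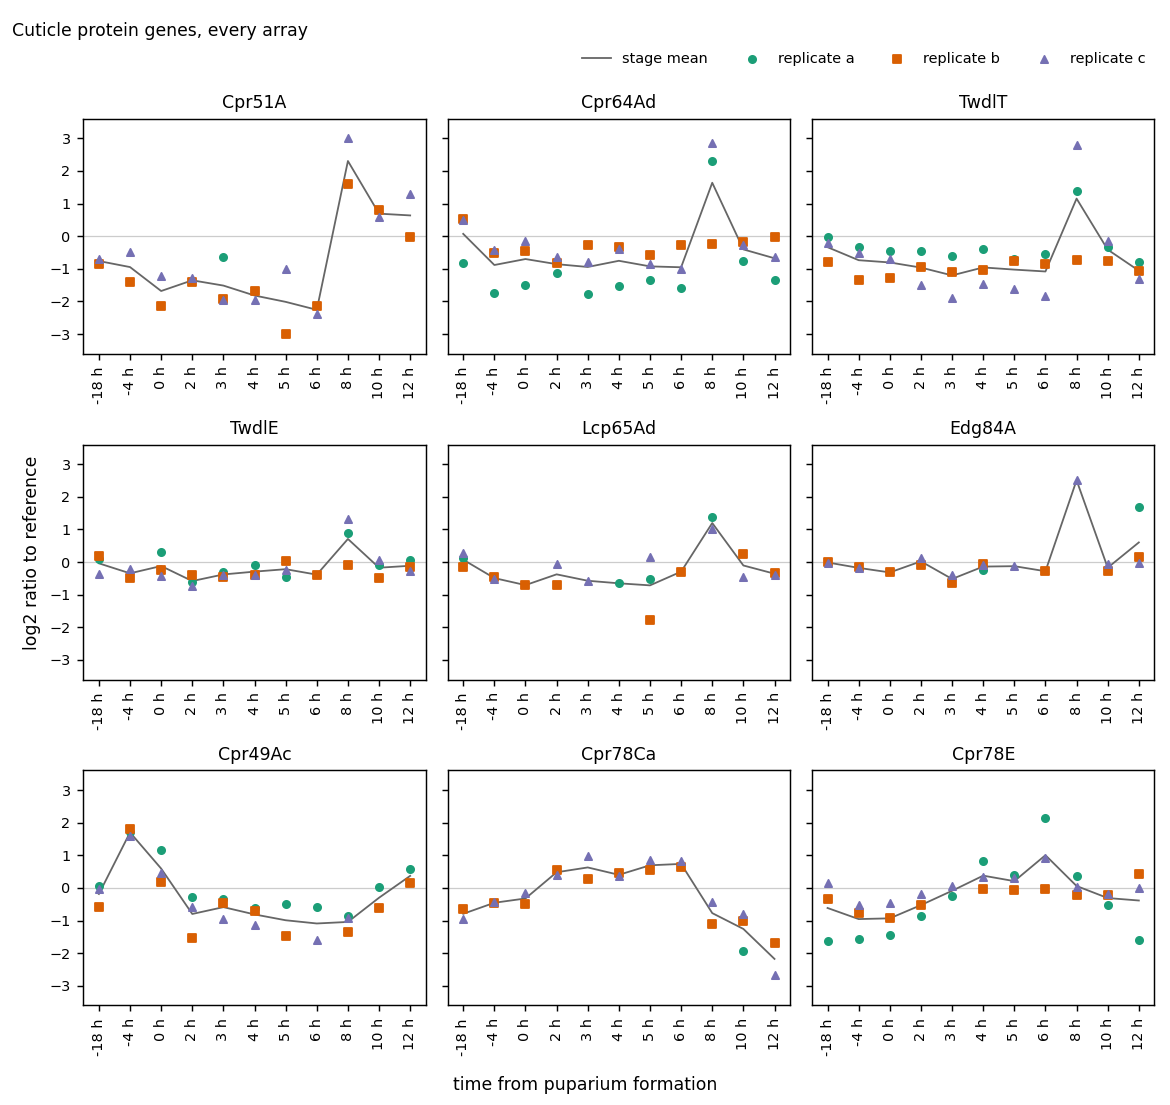
Log2 ratio to the reference on every array (points, by replicate letter) and stage mean (line) for 9 cuticle protein genes over the 11 stages, in hours from puparium formation. The first 6 panels are highest at 8 h, where array b is low for Cpr64Ad, TwdlT and TwdlE and where Edg84A has 1 point; Cpr49Ac is highest 4 h before puparium formation and Cpr78Ca and Cpr78E at 6 h.

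At the end of larval life, from 18 h BPF to 0 h, the genes hardly moved as a group. Of 65 tested, 1 changed, against 17.3% of all features. Osi6 fell by 1.37 ± 0.40 (SE; adjusted p = 0.0161, limma), from -1.32 and -0.51 at 18 h BPF on arrays b and c to -2.30 and -2.25 at 0 h on a and b. The median change of the 65 genes was -0.07, and that of all features 0.06. The call on Osi6 was lost under quantile normalization. Osi6 could not be tested without 18 h BPF array b or c or 0 h array a or b, and no gene was called there; without 0 h array c 2 were. Within this interval Cpr49Ac rose by 1.89 ± 0.32 from 18 h to 4 h BPF (adjusted p = 0.000426, limma), and Osi6 fell by 1.24 ± 0.36 (adjusted p = 0.0398), which made 2 of 92 genes against 6.14% of all features.

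From 0 h to 6 h, 8 of 35 genes tested changed, against 24.7% of all features, a share of 22.9% for the genes. At 6 h 4 Osiris genes stood higher than at 0 h, Osi14 by 4.39 ± 0.63 (adjusted p = 4.02e-06, limma), Osi6 by 3.23 ± 0.36 (1.84e-07), Osi15 by 2.37 ± 0.55 (0.00153) and Osi7 by 1.93 ± 0.66 (0.0309). Cpr78E rose by 1.93 ± 0.46 (0.00214) and Cpr78Ca by 1.06 ± 0.36 (0.0346). Cpr49Ac fell by 1.68 ± 0.36 (0.00101). Cpr76Ba fell by 0.68 ± 0.25 (0.0461), from 0.65 and 0.19 at 0 h to -0.26 and -0.25 at 6 h on arrays a and b. The calls on Osi14, Osi6, Osi15 and Cpr49Ac held under every alternative that could be run, among them 3 leave-outs each of an array with a value. The call on Cpr76Ba was lost with centred or quantile-normalised arrays and in a fit on the arrays of these 2 stages alone, where that on Osi7 was lost too. Osi7 was also lost without 0 h array b or 6 h array b or c. For Cpr76Ba and Cpr78Ca no array that carries the call could be left out. With 1 value per stage required, Cpr76Ba (adjusted p = 0.0681, limma) and Cpr78Ca (0.0515) were not called. With 5 h in place of 6 h, chosen after the data were seen, Osi7, Cpr78Ca and Cpr78E were not called. Only 35 of 108 genes had enough values at both stages, and leaving out 1 array left 3 to 7 calls. Without 0 h array a or b the count was 5 or 3, and without 6 h array a, b or c it was 5, 4 or 5. Over the same interval 4 of 5 tested Malpighian tubule markers rose, with a median change of 1.80 over the list, as did 3 of 9 tracheal markers (sinu, Gasp and btl) while 3 others fell. Their part in the result was not tested.

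The step from 6 h to 8 h differed in its share. Of 44 genes tested 7 changed, or 15.9%, against 3.12% of all 8440 features, and 6 of them rose against 2.01% of all features. Osi20 rose by 1.54 ± 0.21 (adjusted p = 0.000127, limma), Cpr51A by 4.56 ± 0.58 (0.000143), Osi2 by 2.10 ± 0.28 (0.000318), Cpr64Ad by 2.59 ± 0.56 (0.00697), TwdlT by 2.23 ± 0.52 (0.0118) and Osi6 by 1.26 ± 0.33 (0.0306). Cpr78Ca fell by 1.51 ± 0.36 (0.0236). The median change of the 44 genes was 0.10 and that of all features -0.03, so the typical gene of the families moved little.

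The calls at this step differed in how much they leaned on single arrays. Cpr51A, Osi2, Osi20 and Cpr78Ca each had 2 values per stage, so no array that carries their calls could be left out. The calls on Cpr51A, Osi2 and Osi20 held under the other alternatives that could be run. Without 8 h array b the change was 3.53 for Cpr64Ad (adjusted p = 0.000104, limma) and 3.17 for TwdlT (9.2e-05). In that fit 5 genes were called, not all of which were called with all arrays. Cpr64Ad was not called without 6 h or 8 h array a, TwdlT not without 6 h array c or 8 h array a or c, and Osi6 not without 6 h array a or 8 h array a or c. Leaving out 8 h array c left 1 call among 25 genes that could still be tested. Osi6 and TwdlT were not called under quantile normalization, nor were Cpr64Ad, Cpr78Ca, Osi6 and TwdlT in a fit on the arrays of these 2 stages alone. Cpr64Ad, Osi6 and TwdlT were not called with replicate letters b and c alone. Counts without 6 h array a, b or c were 4, 3 and 3, and without 8 h array a 3. With 5 h in place of 6 h, an alternative chosen after the data were seen, 11 of 74 genes were called and 10 of them rose. The share over all features was not computed for that or the other alternatives, so their counts cannot be set against a background.

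**Figure D5:**
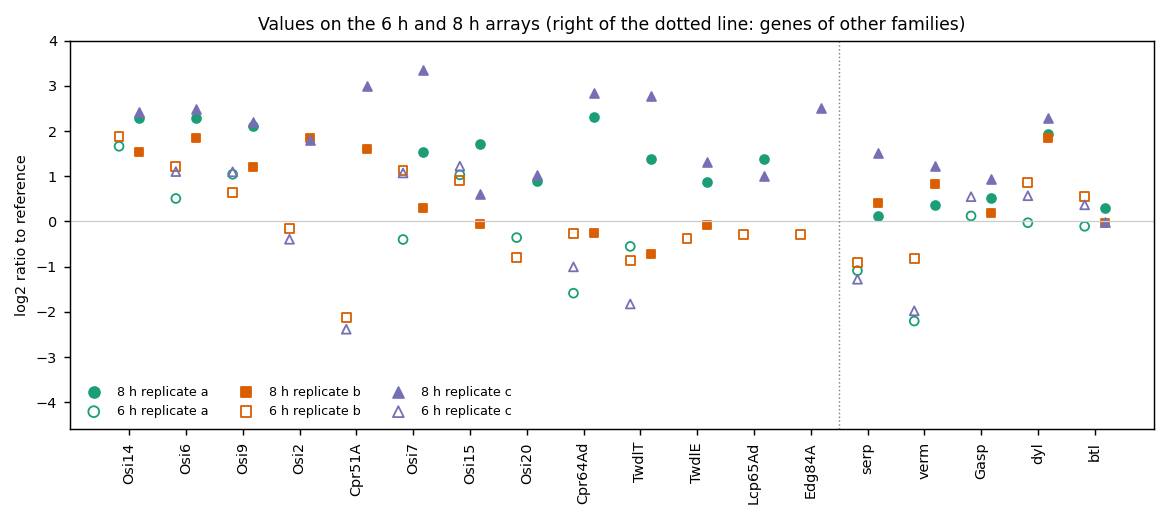
Log2 ratio to the reference on the 6 h arrays (open symbols) and the 8 h arrays (filled symbols), by replicate letter, for 13 cuticle protein and Osiris genes and, right of the dotted line, 5 genes of other families. At 8 h array b is near or below 0 for Cpr64Ad, TwdlT and TwdlE but at 1.86 for Osi6 and 1.85 for dyl.

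Genes outside the families were set beside this step. Among markers of the trachea, a cuticle-lined organ attached to the gut, 12 of 16 were measured and 2 of 10 tested rose: verm by 2.48 ± 0.35 (adjusted p = 6.66e-05, limma) and serp by 1.77 ± 0.33 (0.00154), both chitin deacetylases. Both genes had higher means at 2 h (verm 1.09, serp 0.91) than at 8 h (0.81 and 0.68), with -1.67 and -1.09 at 6 h. The median over the list ran from -0.38 to -0.06 on the 6 h arrays and from 0.12 to 0.22 on the 8 h arrays. On the 2 h arrays it ran from 0.22 to 0.50. The tracheal receptor gene btl changed by -0.18 ± 0.29 and sinu by -0.11 ± 0.34, neither passing, and trh was not used here. Among other cuticle and apical matrix genes 1 of 13 tested rose, dyl, a zona pellucida domain gene, by 1.56 ± 0.28 (0.00108). On 8 h arrays a, b and c dyl read 1.94, 1.85 and 2.29, serp 0.12, 0.42 and 1.51, and verm 0.37, 0.83 and 1.24, so array b was not the lowest for serp or verm. Of 7 foregut and hindgut markers tested 0 were called (limma; 0 at an unadjusted p under 0.05), of 9 tanning and moulting enzymes 0 (1 unadjusted), and of 15 midgut epithelium markers 0 (1 unadjusted). The midgut markers had fallen earlier, 9 of 15 from 18 h BPF to 0 h and 9 of 15 from 0 h to 6 h, and their median was -4.34 to -3.0 on the 8 h arrays against 1.73 to 2.74 at 18 h BPF. Of 11 epidermal markers 4 were measured and 1 could be tested. No haemocyte marker of 9 tested was called (3 unadjusted), with a median change of 0.46, nor any Malpighian tubule marker of 5 (2 unadjusted), with a median change of 0.31. The part of other tissues in the result was not tested.

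The regulators listed beside the genes included ftz-f1, the 1 of 10 tested that was called at this step (6 at an unadjusted p under 0.05), with a median change of 0.35 over the list. It read -0.44, 0.22 and -0.17 at 6 h and 0.79, 1.60 and 0.74 at 8 h, without overlap, a rise of 1.18 ± 0.22 (adjusted p = 0.00221, limma). Its 8 h value was highest on array b, where Cpr64Ad and TwdlT were lowest but Osi2 was not. From 8 h to 12 h ftz-f1 fell by 0.77 ± 0.22 (adjusted p = 0.0235, limma). Its relation to the genes described here was not tested.

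From 8 h to 12 h, 13 of 81 genes tested changed, against 10.8% of all features, and 11 fell, or 13.6% of the genes tested, against 6.43% of all features. Of the Osiris genes 6 of 17 tested fell, with log2 changes of -4.05 ± 0.56 for Osi14 (adjusted p = 8.8e-06, limma), -3.72 ± 0.33 for Osi6 (1.65e-08), -3.33 ± 0.30 for Osi9 (2.29e-08), -3.10 ± 0.66 for Osi7 (0.00165), -1.67 ± 0.28 for Osi2 (0.00056) and -1.52 ± 0.21 for Osi20 (2.22e-05). The 5 cuticle protein genes that fell changed by -2.31 ± 0.56 (Cpr64Ad, 0.00586), -2.21 ± 0.52 (TwdlT, 0.0043), -1.55 ± 0.44 (Lcp65Ad, 0.0301), -1.40 ± 0.36 (Cpr78Ca, 0.0129) and -0.82 ± 0.25 (TwdlE, 0.0359). Cpr49Ac rose by 1.41 ± 0.36 (0.0106) and Cpr57A by 0.58 ± 0.16 (0.0178), from -0.12, -0.35 and -0.08 at 8 h to 0.37, 0.31 and 0.50 at 12 h.

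Calls on Osi6 and Osi9 held under every alternative run, among them 6 leave-outs each of an array with a value. Those on Osi2 and Osi20 held under the alternatives that could be run, but no array that carries them could be left out. The same limit applied to the calls on Cpr78Ca and Lcp65Ad. With the replicate letter as a block, Lcp65Ad changed by -1.33 ± 0.47 and was no longer called (adjusted p = 0.0841, limma). Without 8 h array b, 14 genes were called and Cpr57A was lost, while Osi2 and Cpr78Ca could not be tested. Without 8 h array c, 7 of 41 genes were called and Cpr64Ad, TwdlT and TwdlE were lost. Osi2, Osi20, Cpr78Ca and Lcp65Ad could not be tested without array c. Both counts include genes not called with all arrays. A fit on the arrays of the 2 stages alone called 8 genes, without Cpr57A, Cpr64Ad, Cpr78Ca, TwdlE and TwdlT. A fit on replicate letters b and c alone lost Cpr57A, Cpr64Ad and TwdlE. TwdlE was lost also under quantile normalization, with single probes, and without 8 h array a or 12 h array b or c, and Cpr57A also without 12 h array c. With 10 h in place of 12 h, an alternative likewise added later, 3 were called. Of the chitin synthesis and modification genes 3 of 22 tested rose and 3 fell over the same interval; Cht8, a chitinase, rose by 6.42 ± 0.68 and the chitin synthase Chs2 by 2.33 ± 0.31. In addition 4 of 12 tracheal markers fell, among them verm (-1.93 ± 0.35) and Gasp (-1.61 ± 0.22), and 1 rose. Of 9 tested haemocyte markers 5 fell. The part of these markers in the result was not tested.

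Between neighbouring stages the 10 steps gave 16 calls. The step from 6 h to 8 h supplied the 7 given above. From 0 h to 2 h, Cpr49Ac fell by 1.39 ± 0.32 (adjusted p = 0.00849, limma), 1 of 55 genes against 6.25% of all features. From 8 h to 10 h, 3 of 77 genes changed, against 1.41% of all features, and all 3 fell, against 0.638%. Their changes were -1.91 ± 0.36 for Osi6 (adjusted p = 0.00512, limma), -1.87 ± 0.30 for Osi9 and -1.34 ± 0.21 for Osi20 (both 0.000913). From 10 h to 12 h, 3 of 99 changed, against 2.28%, and all 3 fell, against 1.34%. Here the changes were -2.22 ± 0.56 for Osi14 (adjusted p = 0.0285, limma), -1.81 ± 0.36 for Osi6 (0.00445) and -1.46 ± 0.30 for Osi9 (0.00583).

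No gene was called from 4 h BPF to 0 h, where 3.24% of all features were, or in the hourly steps from 2 h to 6 h, where 0% of features were (limma). At an unadjusted p under 0.05 there were 3 of 64 genes tested in the first of these steps, and 0 of 70, 2 of 75, 3 of 79 and 6 of 45 in the hourly ones. The counts over all features were 1061 of 9570, 235 of 10527, 303 of 10736, 345 of 10940 and 716 of 8427. Without 8 h array c the 10 steps gave 9 calls.

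The other 89 genes, beyond the 19 selected for array values, are accounted for by their ranges. The 50 Cpr genes among them had a median range of 0.64, the 6 Lcp genes 0.77, the 2 Edg genes 1.07, the 15 Twdl genes 0.52 and the 16 Osi genes 0.71. The widest was Cpr65Ec, with -0.69 on 8 h array b and 2.37 on array c, a difference between 6 h and 8 h of 1.71 ± 0.63 that did not pass (adjusted p = 0.172, limma). Cpr72Eb read -1.02 and 1.67 on the 8 h arrays a and c, and 2.52 on 12 h array a against -0.11 and 0.27 on b and c. Stage means of these 89 genes that rested on at least 2 arrays lay between -0.87 and 0.89.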

How the data were processed

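Per the labels, amplified midgut RNA of each stage (Cy5) was hybridised against a pooled reference (Cy3). The deposited values are log2 ratios, 1 per probe and array; neither base nor direction is stated, and both were taken from how well the pooled stages average to the reference (SD across 7257 probes 0.117 in base 2, 0.509 with the sign turned). For background correction, normalization and missing values, the method was not given in the sources used here. Array medians spanned 0.148, under the limit of 0.2 for centring, so the values were used as deposited.

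Probes of 1 gene symbol were averaged (12 of the 108 genes had more than 1 measured probe); 2 probes naming several members were left out. Near-identical copies may share signal. A single limma model (version 3.58.1, R 4.3.3) over 33 arrays gave the stage contrasts, for features with 2 or more values in both stages and with Benjamini-Hochberg adjustment over all of them. Figures were drawn with Matplotlib 3.10.9 under Python 3.11.15. The F statistic used limma's moderated variance with each feature's own missing values; limma's own version called 3887 features against 3909. The code was tested on simulated data. Array values, in the text for the stages compared and in the figures for most genes over all stages, are given for the 12 genes of widest range past the F test, the widest of each family and those called in any of 4 contrasts, 19 in all. For Cpr72Ec, called in none of the 4 contrasts, the text gives the stages of highest and lowest mean. Other genes given by array were chosen after their values were seen. Members and lists were chosen with earlier results of these data known.

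Same-letter arrays deviated together from 0 h to 6 h (r = 0.58, 0.37 and 0.35 for a, b and c) and from 8 h to 12 h (0.34, 0.20 and 0.25), which by the rule used (every r over 0.1) pairs them there; for 18 h BPF to 0 h (0.03, -0.04 and 0.14) and 6 h to 8 h (0.03, 0.36 and 0.11) it does not. All main contrasts were fitted without the letter, so their SE and adjusted p take no account of this pairing. Alternatives were median centring, quantile normalization, other filters on missing values, single probes, the replicate block, letters b and c only, 2-stage fits, leaving out each array, and neighbouring stages.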

Additional observations from a re-analysis of the deposited data

How the results depend on the processing

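Counts of called genes were 13 in the F test, 1 from 18 h BPF to 0 h, 8 from 0 h to 6 h, 7 from 6 h to 8 h, 13 from 8 h to 12 h and 16 over the 10 steps. Restricted to features with a value on all 33 arrays, where 4 of the genes could be tested, they were 3, 0, 1, 2, 3 and 3. With letters b and c only they were 3, 0, 3, 3, 7 and 10, with fewer genes tested. Fits on the arrays of the compared stages alone gave 3 from 6 h to 8 h and 8 from 8 h to 12 h. From 18 h BPF to 0 h, quantile normalization gave 0, single probes 2 and the replicate block 2. The replicate block changed the call on Lcp65Ad from 8 h to 12 h and moved no other count by over 1.5 times. Replacing 6 h by 5 h gave 11 calls to 8 h, for which no share over all features was computed. Replacing 12 h by 10 h gave 3 from 8 h.

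Leaving out 1 array at a time gave 7 to 13 in the F test, 0 to 2 from 18 h BPF to 0 h, 3 to 7 from 0 h to 6 h, 1 to 5 from 6 h to 8 h, 7 to 14 from 8 h to 12 h and 9 to 20 over the steps. The F test gave 7 without 6 h b or 8 h c. From 18 h BPF to 0 h the count was 0 without 18 h BPF b or c or 0 h a or b, and 2 without 0 h c. From 0 h to 6 h it was 5 without 0 h a, 3 without 0 h b, and 5, 4 and 5 without 6 h a, b and c. From 6 h to 8 h it was 4, 3 and 3 without 6 h a, b and c, 3 without 8 h a and 1 without 8 h c. From 8 h to 12 h it was 7, and over the steps 9, without 8 h c. An array left out also removes genes from the test, because 2 values per stage are required. Shares over all features were not computed for any of the alternatives, so their counts cannot be set against a background. Of 29 single-gene calls in the 4 contrasts, 11 were kept under every alternative run (for 5 of these no array with a value could be left out), 18 were lost under at least 1, and 0 reversed. The causes were not tested. The 3 arrays per stage, missing values and unused intensities limit what low genes can show.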
